A study of Mus musculus with 12 samples.

Results

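Respiratory complex I, the NADH:ubiquinone oxidoreductase of the inner mitochondrial membrane, was followed through all 42 gene symbols that begin with Nduf among the 23337 symbols of the 2 count tables. They were chosen by name and not by their values, although earlier results of these data were known. Of these, 36 encode subunits of the complex, 4 encode assembly factors (Ndufaf1 to Ndufaf4) and 2, Ndufa4 and Ndufa4l2, carry the prefix but are no longer counted as complex I subunits. The 36 subunits comprise 7 core subunits and 29 accessory subunits. RNA had been sequenced from sorted cardiomyocytes, the beating muscle cells of the heart (CMs), in 12 samples, 3 for each of 4 groups. Mice with both copies of Srf flanked by loxP sites (Srf-flox/flox, KO) were compared with mice carrying 1 such copy (Srf-flox/+, control or CTRL), and CTRL CMs therefore kept an intact Srf copy. Every animal, CTRL included, received AAV9-cTNT-Cre, a virus whose Cre recombinase is driven by the CM-specific troponin T promoter, and carried a fluorescent reporter that Cre turns on. The virus was injected on postnatal day (P) 1 with collection at P14 in the neonatal model, and at P60 with collection at P90 in the adult model. The low virus dose gave a mosaic, so fluorescent CMs were sorted from hearts in which most CMs were not recombined, and sorted cells can include CMs that kept Srf. Srf itself had 64.0, 57.1 and 49.4 CPM (read counts scaled to a common library size) in P14 CTRL and 32.1, 27.5 and 9.75 CPM in P14 KO, a log2 fold change of -1.30 ± 0.36 (SE) with an adjusted p of 0.0628 by edgeR's quasi-likelihood test, and 0.0220 with the replicate number as a block. At P90 it had 71.2, 59.1 and 81.1 CPM in CTRL and 32.9, 28.9 and 28.1 CPM in KO, a log2 fold change of -1.23 ± 0.13 (SE; adjusted p = 0.00347 by edgeR). Every KO value was under every CTRL value at both stages.

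Complex I takes electrons from NADH, passes them along a flavin and a chain of iron-sulfur clusters to ubiquinone, and pumps protons across the membrane as it does so. Its core subunits, conserved from bacteria, do the chemistry, with the N module oxidising NADH and the Q module reducing ubiquinone, while the remaining core subunits of the membrane arm are encoded by mitochondrial DNA. Accessory subunits surround the core and are needed for stability, and assembly factors help to build the complex but are absent from the finished enzyme. CMs are rich in mitochondria and draw most of their ATP from oxidative phosphorylation, a dependence that grows after birth. The tables held 0 genes of the mitochondrial chromosome, so only nuclear subunits were followed.

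Promoter windows of the members, from 250 bases before to 50 after the annotated start (RefSeq, GRCm38.p6), were matched for 37 of the 42 genes, 39 windows in all. To show what such matches look like, 1 window is given for each of 3 motifs, each from an Nduf gene that was lower in neonatal KO: Ndufs7 at chr10:80249199-80249498 on the plus strand, Ndufaf1 at chr2:119662785-119663084 on the minus strand and Ndufa8 at chr2:36049289-36049588 on the minus strand. Each is written 5′ to 3′ on the strand of its gene, and capitals mark the match to the YY1 motif in Ndufs7, the ETS motif in Ndufaf1 and the NRF1 core in Ndufa8.
Ndufs7: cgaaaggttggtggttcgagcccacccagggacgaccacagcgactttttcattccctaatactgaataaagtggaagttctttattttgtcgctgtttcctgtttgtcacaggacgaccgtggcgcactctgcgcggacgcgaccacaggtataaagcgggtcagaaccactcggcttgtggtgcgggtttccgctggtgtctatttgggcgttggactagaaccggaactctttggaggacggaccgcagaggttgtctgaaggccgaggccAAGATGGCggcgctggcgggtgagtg
Ndufaf1: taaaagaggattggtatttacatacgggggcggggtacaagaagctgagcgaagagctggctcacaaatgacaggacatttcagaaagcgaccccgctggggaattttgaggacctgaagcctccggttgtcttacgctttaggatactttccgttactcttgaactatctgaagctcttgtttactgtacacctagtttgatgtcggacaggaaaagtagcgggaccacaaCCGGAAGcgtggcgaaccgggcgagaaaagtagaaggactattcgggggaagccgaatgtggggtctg
Ndufa8: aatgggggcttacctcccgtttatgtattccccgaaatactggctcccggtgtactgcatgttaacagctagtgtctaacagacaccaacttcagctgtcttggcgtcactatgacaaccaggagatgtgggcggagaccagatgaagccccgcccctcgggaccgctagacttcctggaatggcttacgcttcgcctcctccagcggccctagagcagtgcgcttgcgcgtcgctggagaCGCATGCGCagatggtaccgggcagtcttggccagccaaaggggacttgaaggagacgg

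Both strands of every window were searched for 5 motifs. The YY1 motif AAGATGGC stood in the windows of 18.9% of the 37 member genes, against 3.19% of all 27025 genes with a window and 5.23% of the 8959 such genes tested in neonatal CMs. The NRF1 core GCGCATGCG was found in 8.11% of the member genes, 1.95% of all genes and 4.21% of the tested genes. The ETS motif CCGGAAG was found in 13.5%, 9.93% and 19.7%, respectively. The ERR motif TCAAGGTCA and the CArG box, the sequence that SRF binds, were found in 0 of the 37 member genes, against 0.466% and 1.81% of all genes. In all, 15 member genes held at least 1 of the 5 motifs and 0 held more than 1 kind, so no matches of different motifs overlapped. NRF1, YY1 and ETS proteins are factors known from promoters of nuclear genes for mitochondrial proteins. These shares are descriptions of letters in a window and do not show binding.

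Measured per kilobase (kb) of exon in P14 CTRL, subunit transcripts were more abundant than those of the assembly factors. Ndufa4, now assigned to complex IV, had 2110.0 CPM per kb, and the highest subunits of complex I were the membrane-arm subunits Ndufb8 with 2029 and Ndufb9 with 1809 CPM per kb. Ndufv1 was the highest core subunit with 1011 CPM per kb and Ndufs3 the lowest with 334 CPM per kb. Of the 35 subunits above the expression filter, Ndufb4 was lowest with 91.7 CPM per kb. The assembly factors all lay beneath it, at 74.1 CPM per kb for Ndufaf1, 34.3 for Ndufaf3, 28.6 for Ndufaf4 and 15.9 for Ndufaf2. The same order between the 2 classes held in P90 CTRL, where Ndufb4 had 87.4 CPM per kb and the assembly factors 29.2 to 72.0 CPM per kb. Levels per kb rest on the summed exon length in the tables and on full-length cDNA, and no test was made between genes.

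One subunit could not be followed. Ndufs5 had 1 to 4 counts in the P14 samples and 0 in the P90 samples, where 3 counts correspond to at most 0.326 CPM, and it failed the filter. Of its exon bases, 95.1% are shared on the same strand with BC002163, which had 19.1 CPM in P14 CTRL, 9.84 in P14 KO, 8.29 in P90 CTRL and 7.16 in P90 KO, so its reads cannot be assigned to either gene. Ndufs1 shares 67.8% of its exon bases with the antisense gene Gm11602 (2.68 CPM in P14 CTRL), Ndufa13 shares 27.5% with Tssk6, and overlaps of Ndufa2, Ndufb11 and Ndufa4l2 with antisense neighbours covered at most 7.27%. Whether counting used the strand is not given in the sources used here, and values of these genes are uncertain to that extent. The remaining 41 members were tested in every comparison.

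Neonatal Srf KO was compared with CTRL to ask whether complex I transcripts depend on Srf while CMs mature. All 41 members had negative log2 fold changes, 13 were lower at an adjusted p under 0.05 by edgeR and 0 were higher. Over all 12546 genes tested, 4.6% were called lower and 3.99% higher. The median log2 fold change of the 35 subunits was -0.67, a fold of 0.630, beside 0.00 for all genes, and the interquartile range of the subunits ran from -0.73 to -0.62. Its width of 0.106 compares with 0.484 over all genes. The group included 12 of 35 subunits and 1 of 4 assembly factors. In 25 of 35 subunits every KO sample lay below every CTRL sample, as did 16.7% of all genes tested. With the replicate number as a block, 28 members were lower (background 6.47%), and DESeq2 called 30 (background 8.18%). The calls rested on all 3 KO samples, since leaving out any 1 of them left 0 members called. Over all genes 111 to 202 were then called, instead of 1078. The lowest adjusted p of a member was 0.0554 to 0.0738 by edgeR, with at least 40 of 41 members negative. Leaving out CTRL replicate 3 gave 25 members, beside 931 genes in all.

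**Figure D1:**
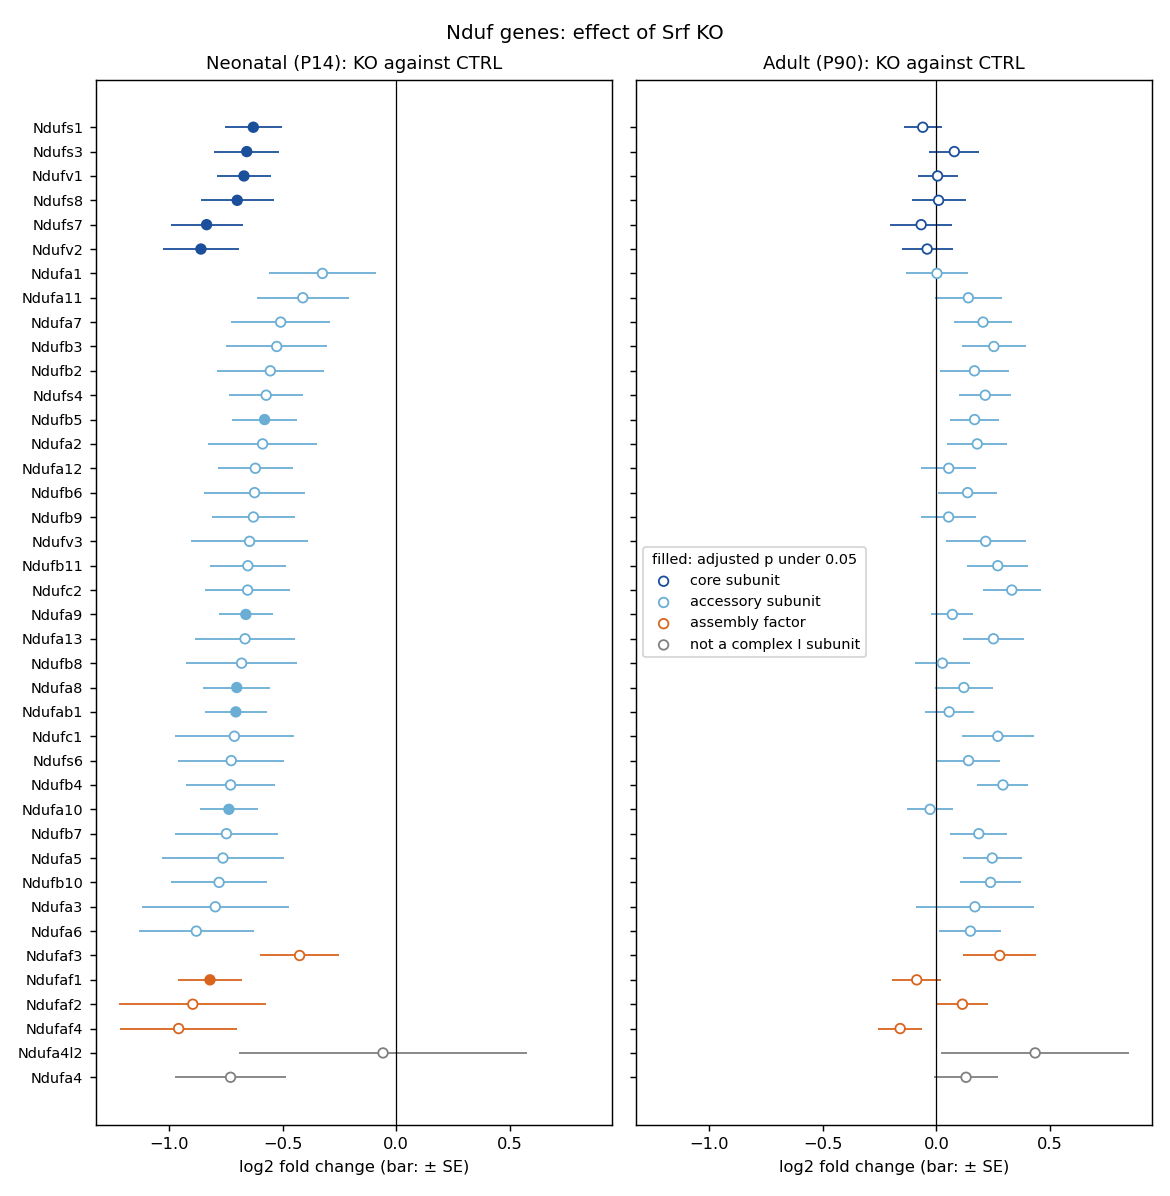
Log2 fold change of KO against CTRL (horizontal axis, bars ± SE) for 40 of the tested members, grouped by class, in the neonatal (left) and adult (right) comparison, with filled points for an adjusted p under 0.05 by edgeR. All 40 points lie left of 0 in neonatal KO, where 12 are filled, whereas 34 lie right of 0 in adult KO and 0 are filled.

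The 7 core subunits were all called lower in neonatal KO, and their log2 fold changes spanned -0.86 to -0.63. In the N module, Ndufv1, which binds NADH and the flavin (chromosome 19, 4007505 to 4012725), had 1419.7, 1726 and 1622 CPM in CTRL replicates 1 to 3 and 1041, 1023 and 939 CPM in KO. This was a change of -0.67 ± 0.12 (SE) on the log2 scale (adjusted p = 0.0182 by edgeR). Ndufs1, the largest subunit and a carrier of iron-sulfur clusters (chromosome 1, 63143592 to 63176822), had 1251, 1509.5 and 1504 CPM in CTRL and 984, 924 and 856 CPM in KO (log2 fold change -0.63 ± 0.13, adjusted p = 0.0229 by edgeR). For the iron-sulfur protein Ndufv2 (chromosome 17, 66078795 to 66101491) the values were 836, 1171 and 814 CPM in CTRL and 552, 545 and 461 CPM in KO, and its change of -0.86 ± 0.17 on the log2 scale was the largest of the core (adjusted p = 0.0214 by edgeR). In these 3 genes the highest KO sample stayed below the lowest CTRL sample.

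Core subunits of the Q module were also lower. Ndufs7, an iron-sulfur protein beside the ubiquinone pocket (chromosome 10, 80249452 to 80256792), whose promoter window is shown above, had 591, 785 and 566 CPM in CTRL and 385, 392 and 316 CPM in KO, a log2 fold change of -0.84 ± 0.16 (adjusted p = 0.0206 by edgeR). KO samples retained 56.2% of its CTRL mean. Ndufs3, a structural subunit of the module, had 274, 376 and 290.5 CPM in CTRL and 198, 213 and 186 CPM in KO (log2 fold change -0.66 ± 0.14, adjusted p = 0.0281 by edgeR). Ndufs8, an iron-sulfur protein, had 386, 529.9 and 377 CPM in CTRL and 282, 283 and 233 CPM in KO (log2 fold change -0.70 ± 0.16, adjusted p = 0.0342 by edgeR). CTRL and KO did not overlap in any of these 3 genes, and CTRL replicate 2 was the highest sample of each.

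Among 28 tested accessory subunits, 5 were called lower in neonatal KO, 4 of the 13 in the Ndufa series, 1 of the 10 in the Ndufb series and 0 of the 5 in the Ndufc, Ndufs and Ndufv series. Their median log2 fold change was -0.66, beside -0.68 for the core. Ndufa10, a subunit related to nucleoside kinases, had 931, 1198 and 1065 CPM in CTRL and 670.3, 651 and 599.7 CPM in KO, a log2 fold change of -0.74 ± 0.13 (adjusted p = 0.0165 by edgeR). Ndufab1, the mitochondrial acyl carrier protein, had 119.7, 158 and 119.6 CPM in CTRL and 84.3, 84.6 and 75.2 CPM in KO, a log2 fold change of -0.71 ± 0.14 (adjusted p = 0.0215 by edgeR). Both had KO samples close together and CTRL samples led by replicate 2. Ndufa8, a subunit facing the intermembrane space, had 491, 631 and 452 CPM in CTRL and 324, 349.6 and 297 CPM in KO (-0.70 ± 0.15, adjusted p = 0.0257 by edgeR). Ndufa9, which lies beside the Q module, had 798, 963 and 887 CPM in CTRL and 592, 570.2 and 515 CPM in KO (-0.66 ± 0.12, adjusted p = 0.0185 by edgeR). Ndufb5 of the membrane arm had 526, 674 and 508 CPM in CTRL and 403, 399.8 and 344 CPM in KO (-0.58 ± 0.14, adjusted p = 0.0420 by edgeR). These 3 genes had no overlap between CTRL and KO either. The change was most negative in Ndufa6, a subunit that binds the acyl carrier protein, at -0.88 ± 0.25, which did not pass (adjusted p = 0.0698 by edgeR). At the other end was Ndufa1, at -0.33 ± 0.23, where 314 to 628 CPM in CTRL overlapped 319.7 to 424 CPM in KO.

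**Figure D2:**
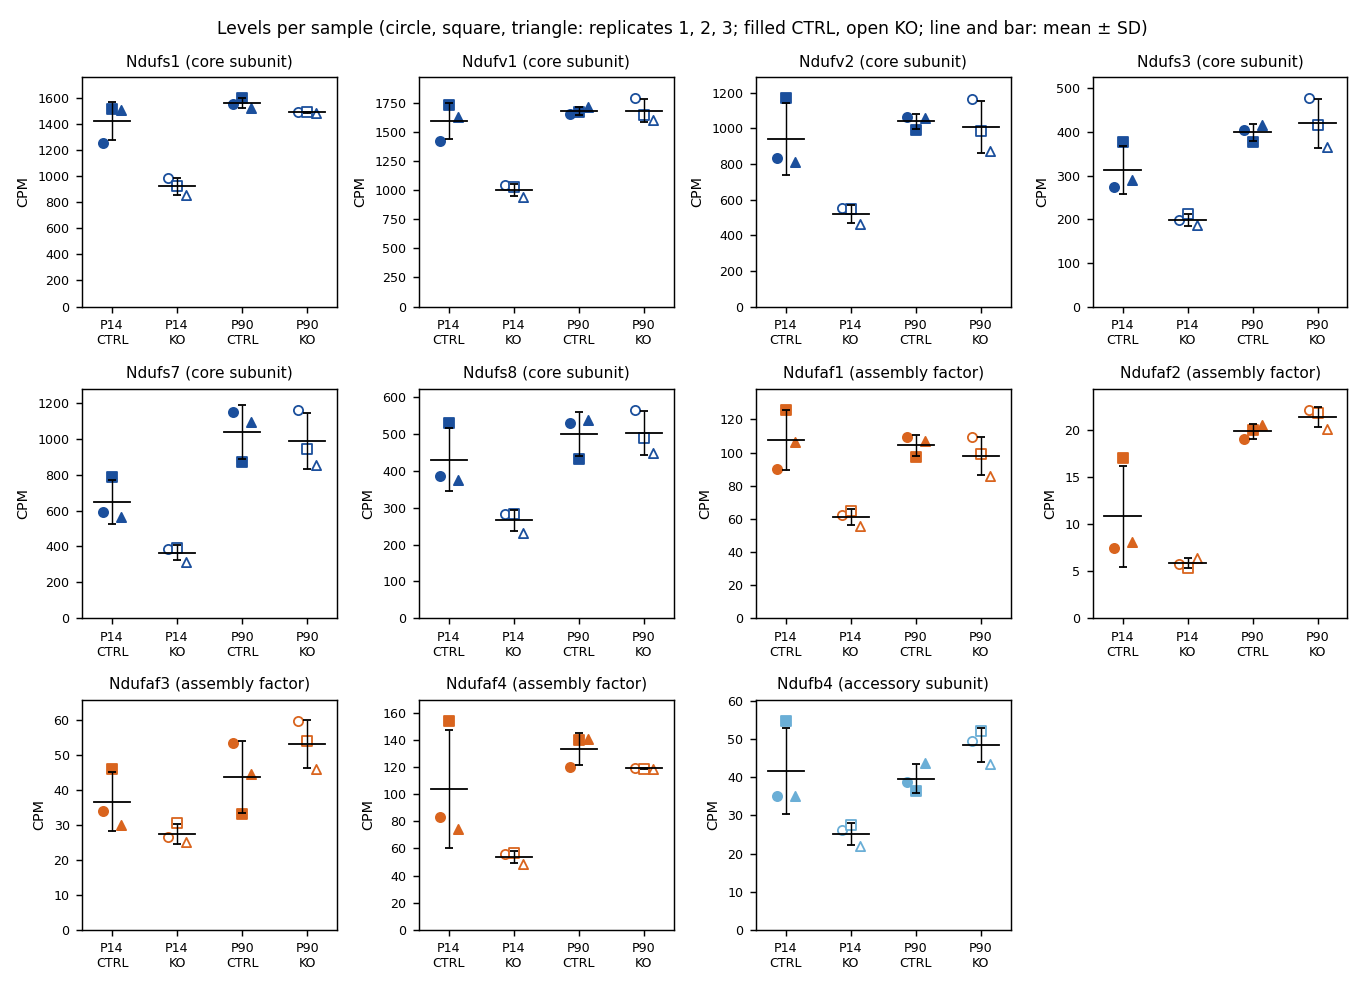
CPM (vertical axes, from 0) in each sample of the 4 groups for 6 core subunits, the 4 assembly factors and Ndufb4. Symbols mark the replicates, filled for CTRL and open for KO, with the mean as a line and the SD as a bar. In each of these core subunits the 3 P14 KO samples lie below the 3 P14 CTRL samples, while P90 KO overlaps P90 CTRL in 5 of the 6, Ndufs1 being the exception.

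All 4 assembly factors had negative changes too. Their median log2 fold change in neonatal KO was -0.86, beside -0.67 for the subunits, on 4 genes and with no test of the difference. Ndufaf1, which acts early in building the membrane arm (chromosome 2, 119655451 to 119662798), had 90.2, 126 and 107 CPM in CTRL and 62.4, 65.0 and 55.8 CPM in KO, a log2 fold change of -0.82 ± 0.14 (adjusted p = 0.0163 by edgeR). It was the only one of the 4 past the threshold. Ndufaf4, a Q module assembly factor, had 82.9, 154 and 74.4 CPM in CTRL and 55.5, 56.6 and 48.6 CPM in KO (log2 fold change -0.96 ± 0.26, adjusted p = 0.0567 by edgeR, 0.0305 with the replicate block). For Ndufaf2, which acts on a late intermediate, CTRL had 7.42, 17.0 and 8.07 CPM and KO 5.80, 5.36 and 6.37 CPM (-0.90 ± 0.32, adjusted p = 0.127). In both genes the KO samples lay below the CTRL samples, and CTRL replicate 2 stood far above the other CTRL samples. Ndufaf3, the partner of Ndufaf4, had 33.9, 45.9 and 30.0 CPM in CTRL and 26.3, 30.6 and 25.1 CPM in KO, which overlapped (-0.43 ± 0.17, adjusted p = 0.167).

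Without CTRL replicate 2 the neonatal medians moved to -0.44 for subunits and -0.48 for assembly factors. In that fit 16 members were called, beside 1004 genes in all. That library carried more of the members than the others of its group, at a summed 25364 CPM over the 42 members beside 18439 and 17452 CPM, whereas the P14 KO samples had 11393 to 13719 CPM. Genes shorter than 1000 bp had a median of 0.35 on the log2(CPM + 1) scale above the mean of the P14 samples in it, beside 0.05 and -0.12 in the other CTRL samples and -0.17 to -0.03 in KO. The median deviation of the subunits was 0.19, 0.70 and 0.08 in CTRL replicates 1 to 3 and -0.22, -0.23 and -0.48 in KO, and that of the assembly factors 0.14, 0.84 and 0.05 in CTRL and -0.36, -0.33 and -0.42 in KO. KO and CTRL did not overlap in either class. The part of library composition in the result was not tested beyond the correction for length below.

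**Figure D3:**
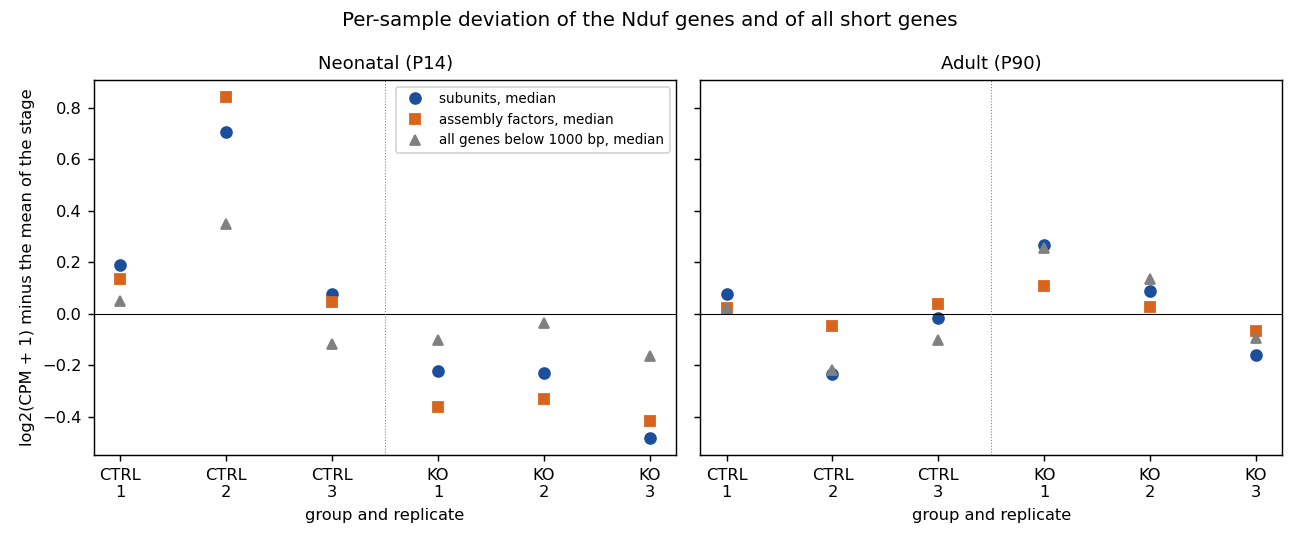
Median deviation of log2(CPM + 1) from the mean of the 6 samples of a stage (vertical axis) in each sample, for subunits, assembly factors and all genes shorter than 1000 bp, with P14 on the left and P90 on the right. At P14 both Nduf classes lie above 0 in the 3 CTRL samples and below 0 in the 3 KO samples, with CTRL replicate 2 highest, while at P90 the subunits run close to the short genes.

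Subunit transcripts are short, with a median exon length of 681 bp (349 to 2927 bp) beside 2940 bp for all genes tested. Short genes had negative median changes in neonatal KO. The per-sample medians of genes below 1000 bp, as deviations from the mean of the P14 samples, nevertheless overlapped. They were 0.05, 0.35 and -0.12 in CTRL replicates 1 to 3 and -0.10, -0.03 and -0.17 in KO. The assembly factors had a median length of 1259 bp. Over all tested genes, log2 fold change rose with length (Spearman's rho 0.188 across genes, which are not independent), and genes below 500 bp had a median of -0.40 whereas those of 8000 bp and more had 0.12. Among the 6223 tested genes within the subunits' length range, 6.7% were called lower, and 7.21% of the 1221 genes between the quartiles of subunit length (533.5 to 1229 bp), whose median log2 fold change was -0.16. Within the subunits the fold change did not follow length (rho 0.059), but its error did (rho -0.665). The 18 subunits at or above the median length had a median change of -0.66 with a median SE of 0.153, and 12 were called. The 17 below it had a median change of -0.68 with a median SE of 0.234, and 0 were called, 16 of them having an unadjusted p under 0.05. In this fit, then, passing the threshold went with length while the size of the change did not.

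When the trend with length was removed from each library by a loess curve over all genes, 19 members were lower in neonatal KO (background 5.28%). The subunit median became -0.48 and that of the assembly factors -0.69, beside -0.002 for all genes between the quartiles of subunit length, and 40 of 41 members were negative, Ndufa4l2 being the exception. All 7 core subunits were again called, at a median of -0.61, and the 13 members called without the correction were among the 19. The 6 added were Ndufa6, Ndufa12, Ndufb4, Ndufb7, Ndufb10 and Ndufb11. In this fit the change did go with length among the subunits (rho -0.672), with a median of -0.41 in the shorter and -0.55 in the longer ones, and Ndufa1 reached -0.05 with an adjusted p of 0.866 by edgeR.

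**Figure D4:**
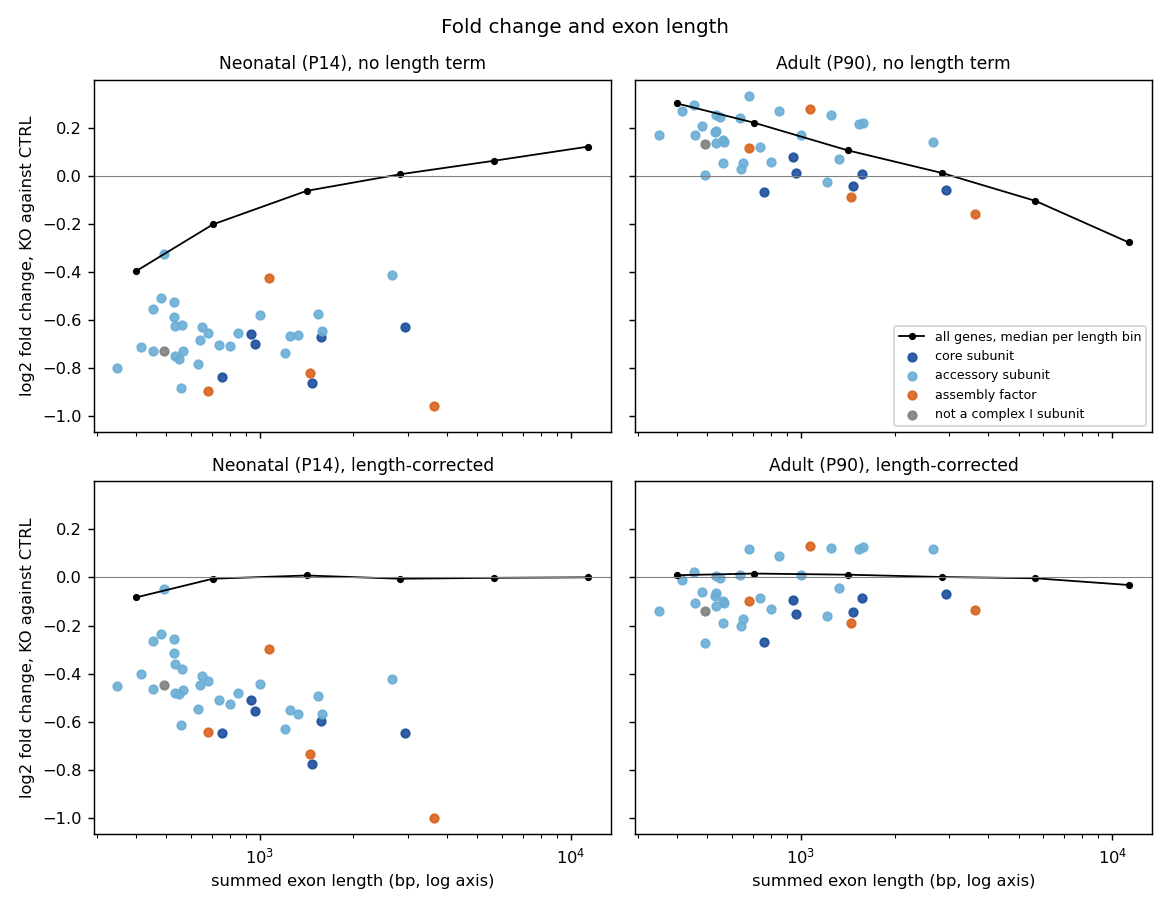
Log2 fold change of KO against CTRL (vertical axis) and summed exon length (horizontal log axis) for 39 tested members, Ndufa4l2 not being drawn, without (top) and with (bottom) the length correction, in the neonatal (left) and adult (right) comparison. The black line joins the medians of all tested genes in 6 length bins, the first of which starts at 0 bp and is drawn at 400 bp, and it is close to 0 after the correction, the shortest neonatal bin keeping -0.08. Members lie below the line in neonatal KO in both settings, apart from Ndufa1, which lies on it, and around it in adult KO.

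Cell markers were read beside these values. The summed level of 6 CM markers was 80332 to 89463 CPM in P14 CTRL and 57971 to 62979 CPM in P14 KO, with 1 of the 6 called lower, Myh6, the adult heart's main myosin (-0.65 ± 0.16, adjusted p = 0.0466 by edgeR). The study reported Myh6, Tnni3 and Ryr2 of this list as lower in neonatal KO and Actn2, also in the list, as higher. It describes Myh6 as a direct target of Srf. The sum therefore does not speak for each marker. Fibroblast (106 to 295 against 172 to 316 CPM) and endothelial markers (174 to 374 against 228 to 339 CPM) overlapped between CTRL and KO and 0 of their 12 genes were called, immune markers were at most 12.0 CPM in the P14 samples, and mural cell markers were 73.2 to 150.2 CPM in CTRL and 182 to 192 CPM in KO, with 1 of 4 called higher. Of 4 haemoglobin genes listed, only 2 were present in the data, Hba-a1 and Hba-a2, both at 0 in every sample. Whether their reads could be counted was not tested, so these values give no measure of blood RNA. In the adult samples the CM marker sum was also lower without overlap, at 81086 to 89944 CPM in CTRL and 72046 to 75301 CPM in KO, with 0 of 6 called. In bulk samples fewer CMs, less RNA per CM and an effect of Srf loss on the marker genes themselves cannot be told apart. The part of cell composition in the neonatal result was not tested.

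Other genes of the pathway were counted by the same test. Of 7 complex I assembly factors without an Nduf symbol, 3 were lower in neonatal KO, namely Foxred1 (-0.77 ± 0.11, adjusted p = 0.00976 by edgeR), Ecsit (-0.66 ± 0.13, adjusted p = 0.0227), which works with Ndufaf1, and Tmem126b (-0.61 ± 0.15, adjusted p = 0.0445). Of the 4 genes that the tables list under older symbols of Ndufaf5 to Ndufaf8, 1 was lower, 2310030N02Rik, which is Ndufaf6 (log2 fold change -0.73). In complex II 3 of 4 subunits were lower (median -0.67), in complex III 4 of 9 (median -0.68), in complex IV 1 of 14 (median -0.61) and in the ATP synthase 5 of 15 (median -0.59), with 0 higher in any of them, although 2 genes of complex IV were called higher with the length correction described above. The medians of these complexes ran from -0.68 to -0.59 around that of the complex I subunits, and no difference from complex I was tested. In adult KO 0 genes of these lists were called.

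In adult KO, 0 of 41 members were called in either direction by edgeR, beside 0.152% of 11808 genes called lower and 0.237% called higher. DESeq2 and the fit with the replicate block also called 0, beside 343 and 655 genes in all. At an unadjusted p under 0.05 there were 2 of 41 by edgeR and 2 by DESeq2, close to the share that this threshold gives with no effect. The median log2 fold change was 0.14 for subunits, -0.02 for the core and 0.01 for assembly factors, and 34 members were positive. The subunit median was 0.015 without KO replicate 1, 0.049 without CTRL replicate 2, 0.21 without CTRL replicate 1 and 0.26 without KO replicate 3, and that of the assembly factors ran from -0.04 without KO replicate 1 to 0.07 without KO replicate 3. Ndufv1 had 1652, 1667 and 1715 CPM in CTRL and 1789, 1647 and 1598 CPM in KO (log2 fold change 0.01 ± 0.09, adjusted p = 0.986 by edgeR). Ndufs7 had 1150.1, 869 and 1095 CPM in CTRL and 1163, 943 and 856 CPM in KO (-0.07 ± 0.14, adjusted p = 0.845). In both, KO spanned the CTRL values. The members with an unadjusted p under 0.05 were Ndufc2 and Ndufb4 of the membrane arm, at 0.33 ± 0.13 and 0.29 ± 0.11, with adjusted p-values of 0.240 and 0.238 by edgeR.

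Short genes were higher in adult KO as a whole. Log2 fold change fell with length across all tested genes (Spearman's rho -0.435), and the genes between the quartiles of subunit length had a median of 0.19, above that of the subunits. After the length correction the adult medians were -0.08 for subunits and -0.12 for assembly factors, all 7 core subunits were negative (-0.27 to -0.07), 0 members were called and 7 had an unadjusted p under 0.05. The sign of the adult subunit median therefore depended on the correction. No member had all KO samples above all CTRL samples, as 10.3% of genes did, and 2 had them below, as did 11.2% of genes. These were Ndufs1, with 1548, 1596 and 1522 CPM in CTRL and 1488, 1492 and 1479 CPM in KO (-0.06 ± 0.08, adjusted p = 0.763), and Ndufaf4, with 119.8, 139.8 and 141 CPM in CTRL and 119 CPM in each KO sample (-0.16 ± 0.10, adjusted p = 0.439).

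Whether the effect of KO differed between the stages was tested as the interaction in a fit of all 12 samples. The neonatal minus adult difference was negative in all 41 members, with a median of -0.76 for subunits and also for assembly factors, and 6 members passed by edgeR, all lower, against 0.958% of 12841 genes. Among them were Ndufb4 (-1.01 ± 0.23, adjusted p = 0.0483), Ndufab1 (-0.75 ± 0.18, 0.0499), Ndufa9 (-0.72 ± 0.14, 0.0292), Ndufa10 (-0.70 ± 0.16, 0.0468) and Ndufv1 (-0.67 ± 0.14, 0.0351). Ndufb4 had 35.0, 54.8 and 35.1 CPM in P14 CTRL, 26.2, 27.5 and 21.9 CPM in P14 KO, 38.9, 36.3 and 43.8 CPM in P90 CTRL and 49.6, 52.2 and 43.5 CPM in P90 KO. It was thus lower in all neonatal KO samples, and in adult KO 2 of 3 samples were above all CTRL samples. Of the others, Ndufa9 had 934, 844 and 908 CPM in P90 CTRL and 986, 953 and 869.6 CPM in P90 KO. Ndufa10 had 1174, 1139 and 1220.5 CPM in P90 CTRL and 1295, 1108 and 1049 CPM in P90 KO. Ndufab1 had 163, 138 and 169 CPM in P90 CTRL and 179, 155 and 153 CPM in P90 KO. Their adult groups overlapped, as did those of Ndufv1 above, while their neonatal groups did not. Genes between the quartiles of subunit length had a median difference of -0.36 themselves. Those below 500 bp, the range that holds Ndufb4 with its 454 bp, had -0.60. With the length correction Ndufb4 had -0.50 ± 0.16 (adjusted p = 0.140 by edgeR). With the length correction 3 members passed (background 1.07%), namely Ndufa9, Ndufs1 and Ndufv1, the subunit median was -0.43 and 40 of 41 members were negative. The replicate block gave 23 members, beside 687 genes called in all instead of 228. The block together with the length correction gave 0 members and 318 genes in all. Ndufa9, Ndufs1 and Ndufv1 then had adjusted p-values of 0.0591, 0.0604 and 0.0622 by edgeR. At an unadjusted p under 0.05 there were 29 members, a count given without its share over all genes. The stage cannot be told apart from the table or handling of the samples, nor from the time since virus injection. That time ran from P1 to P14 in the neonatal and from P60 to P90 in the adult model. Leaving out any 1 P14 KO sample, any 1 P90 CTRL sample, or P90 KO replicate 1 or 2 left 0 members called. Over all genes 4 to 75 were then called. Without P14 CTRL replicate 2 there was 1 member, beside 137 genes in all. Without P14 CTRL replicate 1 or 3 there were 14 members, beside 377 and 349 genes. Without P90 KO replicate 3 there were 11, beside 278 genes.

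Among the CTRL samples, P90 was compared with P14 to see how the members change as CMs mature. This comparison shares its samples with those above, and here too stage cannot be told apart from table, handling or time since injection. At P90, 3 of 41 members were higher and 0 were lower by edgeR, while 14.5% of 12294 genes were higher. Ndufs7 rose from 591, 785 and 566 CPM to 1150.1, 869 and 1095 CPM (log2 fold change 0.69 ± 0.16, adjusted p = 0.0121). Ndufaf2 rose from 7.42, 17.0 and 8.07 CPM to 19.0, 20.0 and 20.6 CPM (0.88 ± 0.29, adjusted p = 0.0473). All P90 samples were above all P14 samples in both genes. The medians were 0.22 for subunits and 0.32 for assembly factors, and 37 members were positive. Leaving out 1 sample moved them over 0.10 to 0.40 and 0.17 to 0.59, the lowest without P14 CTRL replicate 3 and the highest without P14 CTRL replicate 2, and the subunit median was 0.14 without P90 CTRL replicate 1. P14 CTRL replicate 2 weighed on this count too, since without it 24 members were higher. Over all genes 4768 were then called in either direction, instead of 3607. Without P90 CTRL replicate 1 or 3 there were 0 members, beside 2067 and 2136 genes in all. Leaving out any other CTRL sample gave 1, beside 2300 to 3094 genes.

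The 2 symbols that are no longer counted in complex I differed in level. Ndufa4 had 967, 1439.7 and 708 CPM in P14 CTRL, 694, 663 and 527 CPM in P14 KO, 1656, 1333 and 1322 CPM in P90 CTRL and 1803, 1641 and 1257 CPM in P90 KO. Its neonatal change was -0.73 ± 0.24 without passing (adjusted p = 0.105 by edgeR, 0.0434 with the replicate block), although its KO and CTRL samples did not overlap. Ndufa4l2, a paralog known from hypoxic cells, had 0.404 to 2.49 CPM over all 12 samples, with groups that overlapped at both stages.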

How the data were processed

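The deposited values were whole-number read counts per gene, made by the authors from single-end reads of SMART-Seq v4 cDNA with STAR 2.5.3a and featureCounts of Subread 1.5.2 on mm10. Each stage had its own table, with a summed exon length per gene. Library totals were 9740389 to 23103460 counts, so that 3 counts corresponded to 0.138 to 0.326 CPM (counting error only). Genes were filtered with filterByExpr, scaled by TMM and tested with edgeR 4.0.16 (R 4.3.3) in its quasi-likelihood test on the 6 samples of a stage, with Benjamini-Hochberg adjustment over all genes tested and a threshold of 0.05. The interaction was fitted on all 12 samples and maturation on the 6 CTRL samples. CPM were scaled by TMM over all 12 samples. DESeq2 1.42.0, other size factors, no filter, a loess offset on log length (span 0.3), a replicate block, a fit of all 12 samples and leaving out each sample were the alternatives.

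Members and gene lists were chosen with earlier results of these data known. Values in every sample are given for core subunits (1 member is not reported here by name), the assembly factors, the members past a threshold with the largest changes (at most 5 a stage), those past the interaction threshold and Ndufa4, with the range for Ndufa4l2. Ndufaf3 and Ndufa1 were added after their values were seen.

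The labels give CTRL and KO the same replicate numbers without saying what a number stands for. Deviations from the group means correlated between same-numbered P14 samples at r = 0.137, 0.134 and 0.457. CTRL 1 correlated more with KO 2 (0.154), however, and CTRL 2 about as much with KO 1 (0.129). At P90 the values were 0.296, 0.0315 and 0.0982, and CTRL 2 correlated more with KO 3 (0.230). The correlations therefore do not settle whether the numbers mark pairs at either stage. The main tests used no pairs, and the replicate block is given only as an alternative. The study describes its replicates of sorted CMs as separate hearts, and Y-linked counts differed between samples within 3 of the 4 groups. The labels do not name the animal of each sample.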

Additional observations from a re-analysis of the deposited data

Results flagged for a closer look

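By the interaction test in edgeR 6 members were called, all lower, beside 0.958% of 12841 genes. Among them were 5 whose neonatal minus adult difference on the log2 scale was -1.01 in Ndufb4, -0.75 in Ndufab1, -0.72 in Ndufa9, -0.70 in Ndufa10 and -0.67 in Ndufv1. Of these, Ndufa9 and Ndufv1 also passed with the length correction, and neither did when the replicate block was added to it (adjusted p = 0.0591 and 0.0622 by edgeR). Ndufb4, a gene of 454 bp, had -0.50 with the length correction alone (adjusted p = 0.140 by edgeR). Without that correction, all tested genes below 500 bp had a median difference of -0.60, and those from 500 to 1000 bp -0.45. Leaving out any 1 P14 KO sample, any 1 P90 CTRL sample, or P90 KO replicate 1 or 2 left 0 members called.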

How the results depend on the processing

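The number of members lower in neonatal KO was 13 and became 30 with DESeq2, 26 without a filter, 28 with the replicate block, 25 with the block and length correction together and 30 in the fit of all 12 samples. The 13 were among those called in each. Calls over all genes, in either direction, moved as well. They were 1078 in the main fit and 1832, 1281, 1529, 1438 and 2088 in these settings, in the same order. Leaving out 1 sample gave 0 to 25 members, beside 111 to 1004 genes in all, with assembly factor medians of -1.02 to -0.48. The adult medians became -0.084 for subunits and -0.12 for assembly factors with the length correction, and -0.083 and -0.12 with the block as well. The interaction count was 25 with DESeq2, 21 without a filter, 23 with the replicate block, 3 with the length correction and 0 by edgeR with both. Over all genes the interaction test called 228 in the main fit and 916, 474, 687, 221 and 318 in these settings, in the same order. Its subunit median was -0.43 with the length correction and -0.42 with both, and the assembly factor median -0.53 with both. Leaving out 1 sample gave 0 to 14 members, beside 4 to 377 genes in all, with assembly factor medians of -0.88 to -0.50. The maturation count was 5 without a filter, 9 with the length correction, 7 with the block as well, and 0 to 24 when 1 sample was left out. Over all genes 3607 were called in the main fit and 3884, 3839, 3613 and 2067 to 4768 in these settings, in the same order. In adult CMs the replicate block called 0 members, beside 655 genes in all instead of 46. The cause of these shifts was not tested.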
